A study of Mus musculus with 15 samples.

Results

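The genes described here are the protein-coding genes named Psma to Psmg with a number, the naming scheme of proteasome subunits, their activators and the factors that assemble them. The deposited table held 47 such genes among 16658, and 46 of them reached the level needed for testing, a log2 CPM (reads of a gene relative to the scaled size of its library, on a log2 scale) of at least 0 in at least 3 libraries. By role they are 8 alpha and 7 beta subunits of the core particle, 2 subunits of the immunoproteasome, 6 ATPases and 11 other subunits of the cap, 3 chaperones of the cap base, 4 chaperones of the core, and 5 activators or inhibitors. The rule also took in Psmc3ip, a recombination factor named for binding a cap ATPase, which is kept apart. The first 4 constitutive classes, core alpha, core beta, cap ATPases and the other cap subunits, are called the 32 structural subunits. Psmb10, Psmb11 and Psme2b were not analysed here.

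RNA came from hearts of male C57BL/6 mice aged 8 to 10 weeks, sampled so that infarct and neighbouring muscle were both included. The 5 groups are sham (n = 3; libraries 003, 006 and 007), untreated (n = 2; 17 and 19), the factor Xa inhibitor rivaroxaban at 3 mg/kg (n = 2; Riva-313 and Riva-319), the thrombin inhibitor dabigatran at 10 mg/kg (n = 2; Dabi-202 and Dabi-204) and activated protein C, a natural anticoagulant protease written aPC, at 1 mg/kg (n = 2; aPC-791 and aPC-792). Rivaroxaban and dabigatran were given over 7 days and aPC 30 min before an operation in which the left anterior descending coronary artery was tied for 90 min, with 24 h of reperfusion and dosing resumed after 2 h. The labels describe the operation once for the whole study and list no genetic change, so untreated is kept here as a label only, and the 4 labelled samples that have no column in the table were not analysed here. Nothing in the labels says how many animals a library stands for or gives a batch, so p-values measure the spread between these libraries.

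The proteasome is the protease that degrades proteins tagged with ubiquitin. Its barrel-shaped core holds the active sites on the inner faces of the beta subunits Psmb5, Psmb6 and Psmb7, and a cap on the end of the barrel recognises the tag, removes it, unfolds the protein and feeds it in. In cells exposed to interferon gamma the catalytic subunits can be replaced by Psmb8, Psmb9 and Psmb10, giving the immunoproteasome, which favours peptides that MHC class I molecules present. The activators Psme1 to Psme4 open the core without the ubiquitin-reading cap. When proteasome activity is short, the transcription factor Nfe2l1, extracted from the endoplasmic reticulum membrane and cut by Ddi2, raises transcription of many subunit genes together.

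Reads on listed genes ran from 26203566 in Dabi-202 to 36135006 in Dabi-204, and the values proved to be whole reads on a log scale. The untreated libraries stood farther apart than any other replicate pair: the SD of the log2 difference between them over all tested genes was 0.79, against 0.31 to 0.48 in the other pairs. Gm42418, a gene that overlaps ribosomal RNA sequence, took 6.78% and 6.73% of the reads in the aPC libraries and 0.997% to 2.09% in the rest. Cardiomyocyte markers were the most abundant list in every group, as the tissue label has it, and their summed level was lowest in dabigatran (54093 and 54762 CPM, against 71156 to 102456 CPM elsewhere). Neutrophil markers summed to 581 to 1018 CPM in dabigatran, 105 to 156 in untreated and 17.7 to 107 in the other groups. In tissue RNA, fewer cells of a type and less RNA per cell cannot be told apart.

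Within sham hearts the constitutive subunits lay far above the inducible ones. Per kilobase of exon, the catalytic subunit Psmb5 stood at 98.7, 106 and 77.6 CPM, the cap ATPase Psmc3 at 88.5, 95.2 and 86.1, and the alpha subunit Psma6 at 86.2, 89.8 and 86.6. The 3 do not order beyond the spread of their libraries. Psmb9 stood at 2.77, 2.26 and 1.37 CPM per kilobase and Psmb8 at 1.23, 0.988 and 0.661, below every constitutive subunit except Psma8. Psma8, the testis form of an alpha subunit, reached 0.356, 0.326 and 0.138. Among the activators Psme4, the single-chain activator linked to histone breakdown, was the most abundant with 55.04, 42.8 and 66.4, and its range took in all 3 values of Psme1 (44.0, 55.3 and 48.2). The inhibitor Psmf1 stood at 3.17 to 3.61. Core chaperones lay at 11.2 to 15.3 apart from Psmg3 (0.178 to 0.271), and the base chaperones Psmd5, Psmd9 and Psmd10 at 2.21 to 8.30. Exon length here is that of all annotated transcripts merged, so a gene with long minor transcripts is placed too low.

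**Figure D1:**
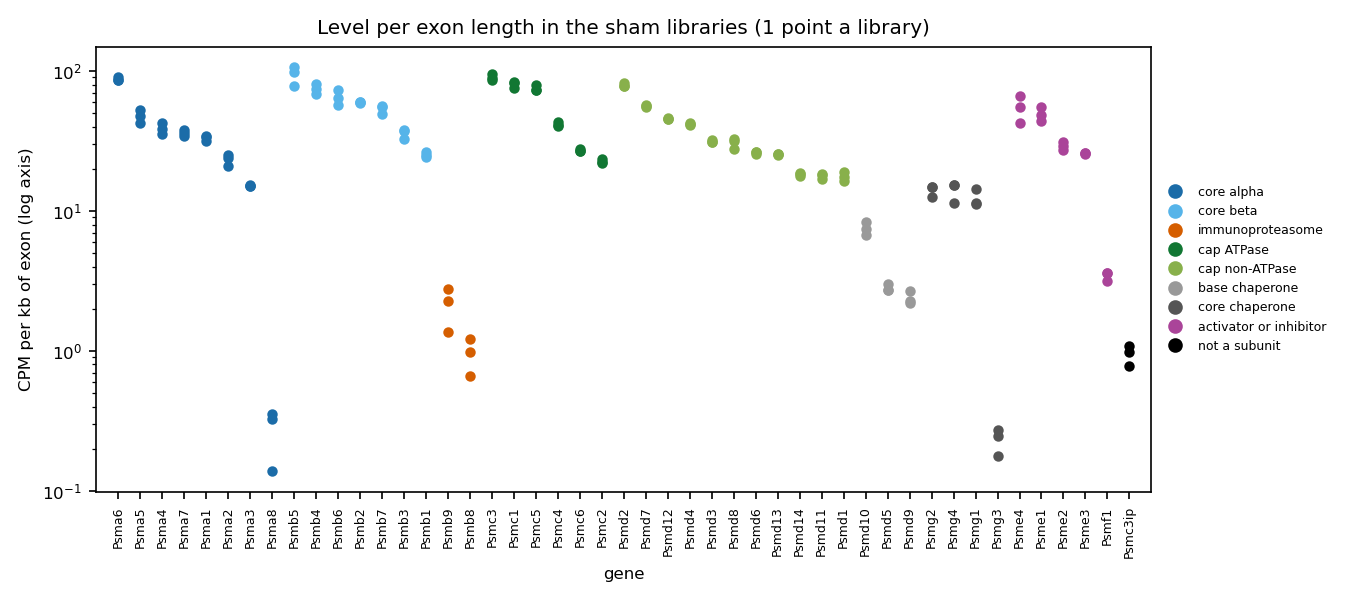
Level of each of the 47 genes in the 3 sham libraries, in CPM per kilobase of merged exon on a log axis, ordered within role. Constitutive subunits other than Psma8 sit between the 15.1 of Psma3 and the 106 of Psmb5, above both immunoproteasome subunits, which do not exceed 2.77.

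The structural subunits moved together from library to library by small amounts. Relative to the sham mean, the mean of the 32 stood at 0.03, 0.04 and −0.08 on the log2 scale in sham 003, 006 and 007, at 0.11 and 0.19 in untreated 17 and 19, and at −0.10 and 0.03 in Riva-313 and Riva-319. It stood at 0.40 and 0.05 in Dabi-202 and Dabi-204, and at 0.36 and 0.18 in aPC-791 and aPC-792. Dabi-202 and aPC-791 were highest, followed by untreated 19, aPC-792 and untreated 17, and Dabi-204 lay near sham. In aPC-791 all 32 subunits exceeded their sham mean, and 30 did in aPC-792, where 53.2% and 52.6% of all tested genes exceeded theirs. Dabi-202 had 31 above it and Dabi-204 had 17, and untreated 17 and 19 had 22 and 23, beside 50.9% and 47.7% of all genes.

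**Figure D2:**
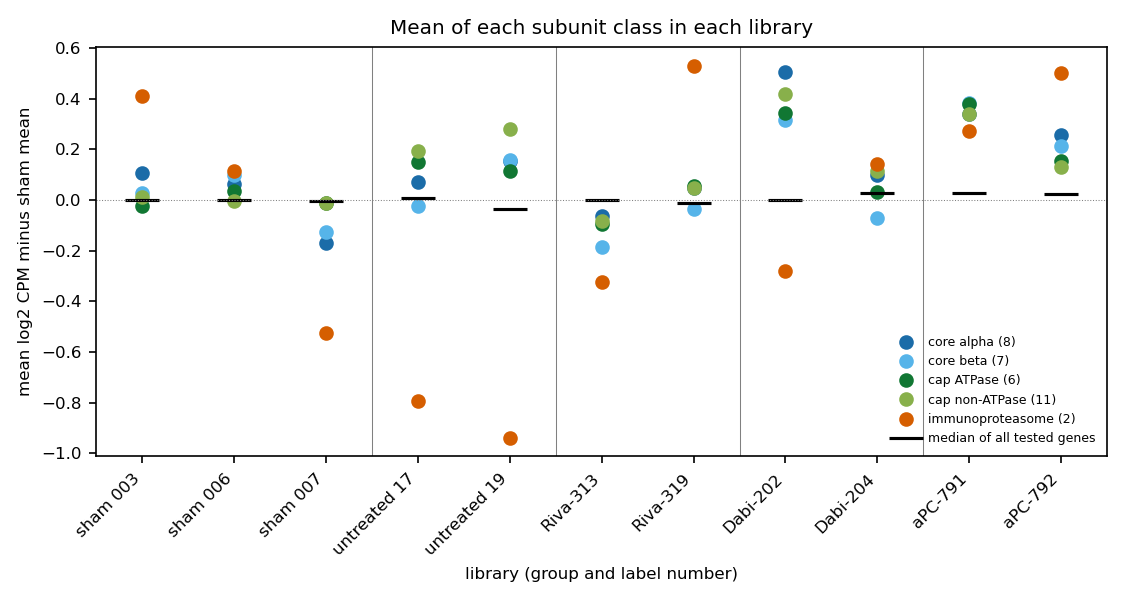
Mean of each subunit class in each library, as log2 CPM minus the sham mean, with the number of genes in brackets and the median of all tested genes as a black bar. The 4 constitutive classes travel as a cluster, highest in Dabi-202 and aPC-791, while the immunoproteasome mean is lowest in both untreated libraries.

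Across the 11 libraries the class means of core alpha, core beta, cap ATPase and other cap subunits had Pearson correlations of 0.815 (core beta with the non-ATPase cap) to 0.922 (cap ATPases with the other cap subunits). These describe 11 points that share their libraries, groups and RNA, so anything that differs between libraries as a whole enters them. Single subunits followed the mean of the others to different degrees, from 0.952 for the alpha subunit Psma2 and 0.942 for the beta subunit Psmb4 to 0.565 for the cap subunit Psmd11 and 0.355 for the cap scaffold Psmd2. Outside the structural set the activator Psme3 reached 0.883, whereas Psmb9 had −0.21, Psme4 −0.15 and the chaperone Psmg2 0.02. Among 13495 tested genes outside the family the profiles most like the structural mean were those of Gng5 (0.987), Gabarapl2 (0.965), Cops5 (0.963), Spcs1 (0.950), Rpl27 (0.947), Mad2l2 (0.945), Pomp (0.943), Gcsh (0.940), Atp6v0c (0.940) and Abcf2 (0.938). Pomp is the chaperone that matures the core particle and Cops5 is the catalytic subunit of the COP9 signalosome, a complex built like the cap. The median correlation of those 13495 genes was −0.00, and 2.56% of them exceeded 0.8.

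**Figure D3:**
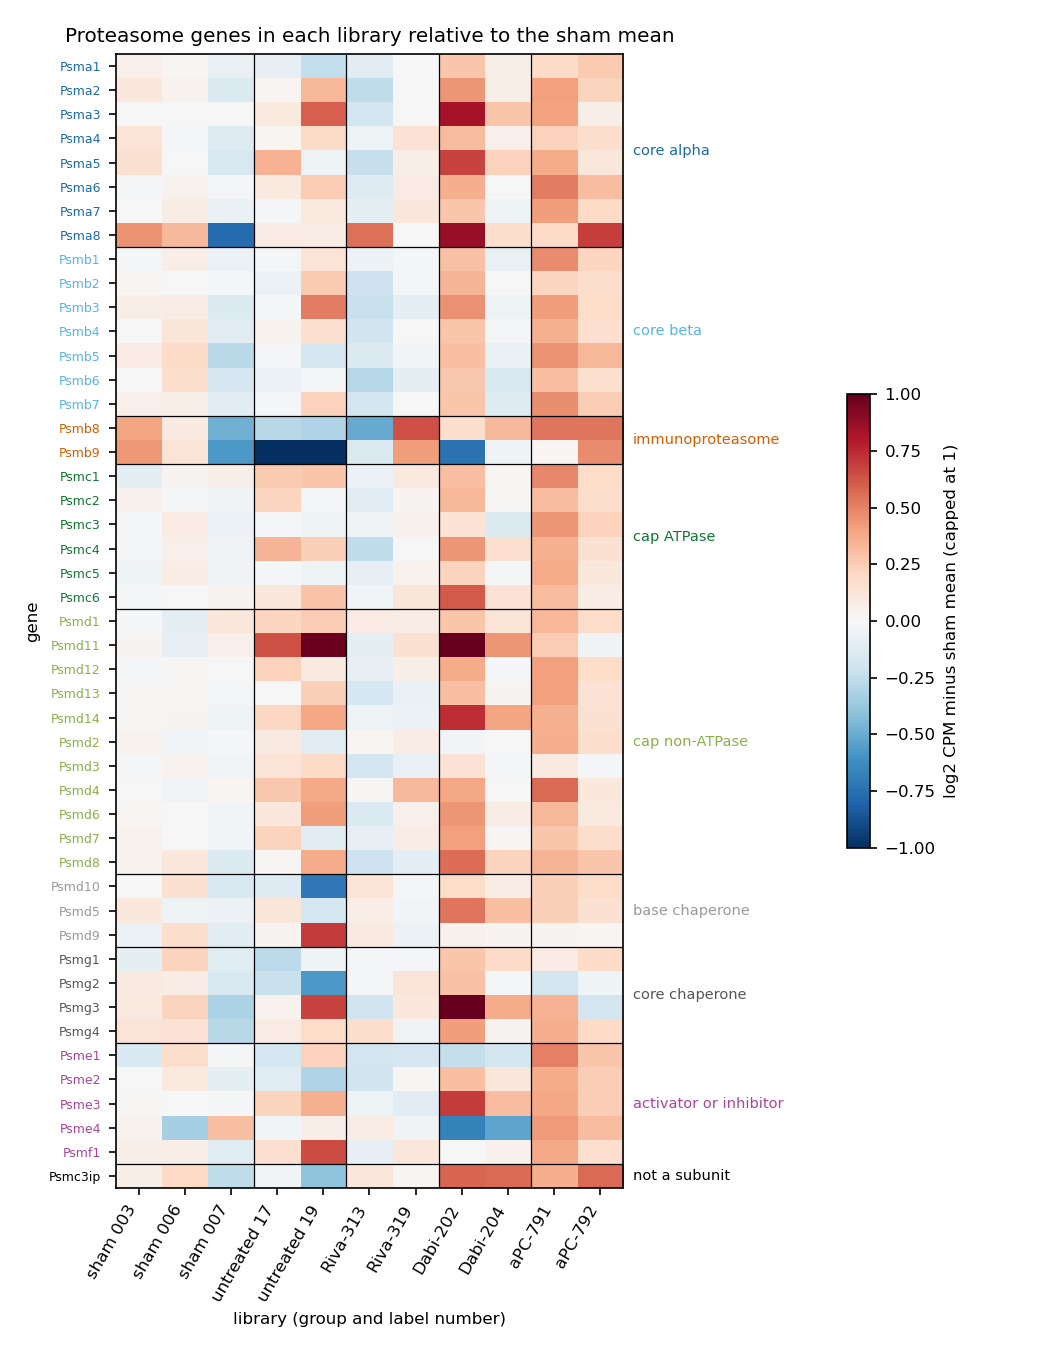
Each of the 47 genes (rows, by role) in each of the 11 libraries (columns), as log2 CPM minus the sham mean, with the colour capped at 1. The columns of Dabi-202 and aPC-791 are warm through the core and cap rows, Psmb9 is at the cap of the cold side in both untreated libraries, and Psme4 is cold in both dabigatran libraries.

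Set between groups, these shared movements mostly stayed short of the threshold for single genes, a Benjamini-Hochberg adjusted p under 0.05 in limma over 13541 tested genes. In aPC against sham all 32 structural subunits had a positive difference, with a median of 0.26 on the log2 scale beside 0.03 for all tested genes, and in 27 of them the aPC libraries lay wholly above the sham libraries, as in 24.0% of all tested genes. None of the 46 members passed the test there, where 1.17% of all genes passed, and 12 members had an unadjusted p under 0.05. Without aPC-791 the median was 0.18 with 30 positive. In aPC against rivaroxaban all 32 were again positive with a median of 0.31 beside 0.02, 28 were apart where 33.3% of all genes were, and no member passed against a background of 1.54%, with 15 below an unadjusted p of 0.05. The alpha subunit Psma6, for one, stood at 6.73, 6.79 and 6.74 log2 CPM in sham and 7.27 and 7.06 in aPC. Its aPC libraries lay above all sham libraries, and the difference of 0.41 had an adjusted p of 0.191 by limma. Psmb5, the chymotrypsin-like catalytic subunit, stood at 6.25 and 6.37 in rivaroxaban and 6.84 and 6.73 in aPC. The aPC libraries were the higher ones without overlap, and the difference of 0.48 had an adjusted p of 0.167. Limma-voom on recovered reads also called 0 in both, and with a weight fitted to each library 5 members passed in aPC against sham and 16 in aPC against rivaroxaban. The shares of 1.17% and 1.54% belong to the fit without weights. No share of all tested genes is given for the weighted fit, so its counts are no result about the members. The high Gm42418 share of the aPC libraries moved with this difference, and its part was not tested.

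In dabigatran the structural subunits rested on a single library. Against sham 31 of 32 were positive with a median of 0.18 beside 0.01 for all genes, but without Dabi-202 only 17 were, with a median of 0.01. Dabi-202 exceeded Dabi-204 in 31 of the 32, by a median of 0.35. Rivaroxaban against dabigatran mirrored this with a median of −0.22 and 1 positive, −0.14 without Riva-313, −0.39 without Dabi-204, and −0.05 with 8 positive without Dabi-202. In untreated against sham the median was 0.13 with 26 positive, beside −0.03 over all genes, and it was 0.21 without untreated 17 and 0.09 without untreated 19. In rivaroxaban against untreated it was −0.18 with 6 positive beside 0.02 over all genes, −0.10 with 9 positive without Riva-313 and −0.29 with 3 positive without Riva-319. Rivaroxaban against sham gave −0.04 with 10 positive, which turned to 0.01 with 19 positive without Riva-313, and no member passed by limma or limma-voom where 0% of all genes did, none with an unadjusted p under 0.05. Dabigatran against untreated (0.06, 23 positive, beside 0.05 over all genes) turned to −0.05 with 10 positive when libraries were centred on their medians, where the median of all genes also stood at −0.05. It was −0.10 with 8 positive without Dabi-202 and 0.22 with 30 positive without Dabi-204. For aPC against untreated the median was 0.14 with 25 positive beside 0.07 over all genes. It was 0.07 with 20 positive beside 0.06 without aPC-791, and 0.08 beside 0.10 without untreated 17. For aPC against dabigatran it was 0.07 with 22 positive, which became −0.08 with 9 positive without Dabi-204 and 0.25 with 29 positive without Dabi-202. These comparisons share libraries, so their medians are not separate observations.

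The subunit that fell farthest was Psmb9, the immunoproteasome replacement for Psmb6, which lies on GRCm38 at chr17:34181987-34187764 on the minus strand inside the MHC. It stood at 3.35, 3.06 and 2.35 log2 CPM in sham 003, 006 and 007, at 1.61 and 1.34 in untreated 17 and 19, at 2.77 and 3.34 in rivaroxaban, at 2.18 and 2.88 in dabigatran and at 2.94 and 3.39 in aPC. Both untreated libraries were lower than all 9 others, and among the other groups the dabigatran libraries lay below those of aPC while the remaining pairs overlapped. These levels rest on 97 and 70 reads in the untreated libraries and on 118 to 351 in the rest. In untreated hearts Psmb9 fell by 1.44 ± 0.34 on the log2 scale against sham (95% interval −2.19 to −0.69, limma adjusted p = 0.0269). It rose by 1.58 ± 0.37 with rivaroxaban (0.76 to 2.40, adjusted p = 0.0303) and by 1.69 ± 0.37 with aPC (0.87 to 2.51, adjusted p = 0.0154) against untreated. With dabigatran the difference of 1.05 (0.23 to 1.87) missed the threshold, with an adjusted p of 0.0837.

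Single libraries decided some of these calls. In fits without a library of any group but sham, that group is left with 1 library. Without sham 003, sham 006 or untreated 19 the fall against sham was −1.23, −1.37 or −1.31 with adjusted p of 0.0871, 0.0998 and 0.0955. The rise with rivaroxaban lost its call without sham 006 (0.0520), untreated 19 (0.0848), Riva-313 (0.117) or Riva-319 (0.191), and the rise with aPC lost it without aPC-792 (1.46, adjusted p 0.129). Over all tested genes the shared estimate of the spread is mostly low for the untreated pair, so p-values against untreated mostly run small. The SD of Psmb9 itself was smallest in untreated, at 0.189. It was 0.517 in sham, 0.401 in rivaroxaban, 0.491 in dabigatran and 0.320 in aPC.

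Psmb8, the replacement for Psmb5, is the neighbour of Psmb9 at chr17:34197721-34201454 on the plus strand. It stood at 2.07, 1.77 and 1.20 log2 CPM in sham, 1.41 and 1.38 in untreated, 1.18 and 2.32 in rivaroxaban, 1.86 and 2.01 in dabigatran and 2.21 and 2.22 in aPC. Untreated lay inside the range of sham, and the rivaroxaban libraries spanned the whole series. No comparison passed for Psmb8, and in aPC against untreated the difference was 0.82 (95% interval −0.03 to 1.68, limma adjusted p = 0.150). The separation of Psmb9 from its constitutive counterpart moved with Psmb9: Psmb9 minus Psmb6 on the log2 scale was −3.56, −4.03 and −4.41 in sham, −5.25 and −5.56 in untreated, −3.86 and −3.49 in rivaroxaban, −5.00 and −3.88 in dabigatran and −4.28 and −3.69 in aPC. The difference was widest in both untreated libraries, with Dabi-202 next. Psmb6 itself ranged from 6.63 to 7.22 log2 CPM over all 11 libraries and passed in no comparison.

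**Figure D4:**
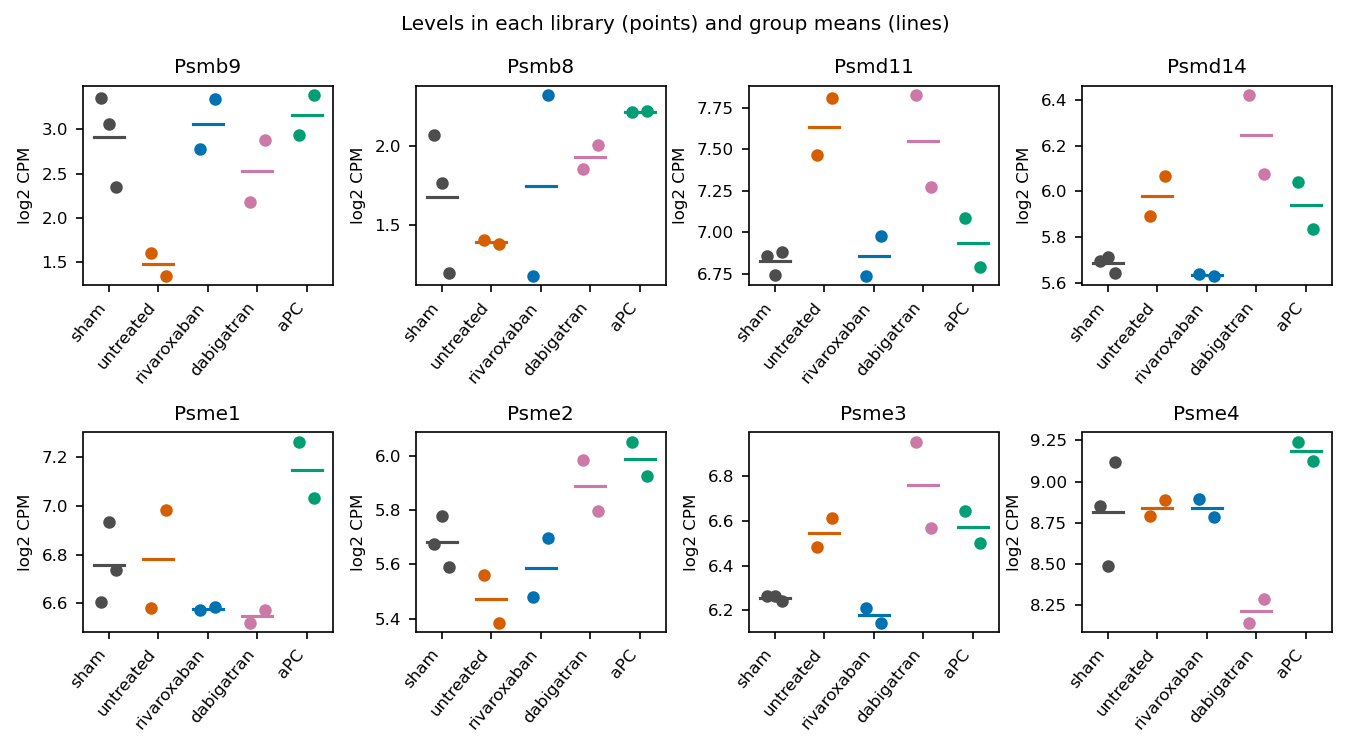
Levels of 8 members in log2 CPM by group, with 1 point a library and a line at the group mean, each panel on its own axis. Psmb9 is lowest in both untreated libraries (1.61 and 1.34), Psmd11 is high in untreated and dabigatran, and Psme4 is lowest in both dabigatran libraries (8.14 and 8.29) and highest, with sham 007, in aPC.

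Of 12 tested interferon signalling genes 2 fell in untreated against sham and none rose, where 10.6% of all tested genes passed. Ifngr2, a chain of the interferon gamma receptor, was low in the same libraries as Psmb9. It stood at 7.76, 7.40 and 6.91 log2 CPM in sham, 6.43 and 6.19 in untreated, 7.03 and 6.97 in rivaroxaban, 6.86 and 7.12 in dabigatran and 7.06 and 7.62 in aPC. Both untreated libraries were the lowest, without overlap with any other group. Ifngr2 fell by 1.05 ± 0.24 in untreated against sham (limma adjusted p = 0.0236), a call lost without sham 003, sham 006 or untreated 19 (0.0696, 0.0861 and 0.0998). It rose by 1.03 ± 0.26 with aPC against untreated (adjusted p = 0.0252), lost without untreated 19 or aPC-792 (0.0737 and 0.188), and the differences of 0.69 with rivaroxaban and 0.68 with dabigatran had adjusted p of 0.112 and 0.103. The other receptor chain, Ifngr1, went the other way, at 6.12, 5.97 and 5.76 in sham and 6.21 and 6.29 in untreated, without overlap. It did not pass there. Irf1, an early interferon gamma target, did not pass and ranged from 4.07 to 4.78. Ube2l6, taken from the ubiquitin list, is the conjugating enzyme for the interferon-induced modifier Isg15. Its levels were 3.82, 3.40 and 3.18 in sham and 2.70 and 2.51 in untreated. They were 3.43 and 3.76 in rivaroxaban, 3.16 and 3.24 in dabigatran and 3.71 and 3.90 in aPC. It was lowest in the untreated libraries, and fell by 0.86 against sham (adjusted p = 0.0338), a call lost when any of sham 003 or 006, untreated 19, or either library of rivaroxaban or aPC was left out (0.0507 to 0.107).

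Of 10 tested MHC class I genes none passed in limma in untreated against sham or rivaroxaban against untreated, with 3 at an unadjusted p under 0.05 in each. Of all tested genes 10.6% and 8.47% passed there, and 17.6% did in aPC and 13.8% in dabigatran against untreated. In aPC against untreated 4 rose, the peptide-loading chaperones Pdia3 (by 1.10), Canx (by 0.80) and Calr (by 0.95) and the trimming peptidase Erap1 (by 0.59), and without aPC-792 none did. In dabigatran against untreated Pdia3 (by 1.26) and Calr (by 1.19) rose, and without Dabi-202 none did. Tap1, the peptide transporter gene beside Psmb9, stood at 4.35, 3.97 and 3.44 log2 CPM in sham and 3.73 and 4.51 in untreated. The untreated values overlapped those of sham. The exons of Tap1 overlap those of Psmb9 on the opposite strand, and whether counting used the strand is not given in the sources used here.

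Resident macrophage markers were also lowest in both untreated libraries. In rivaroxaban they lay below sham, with a negative difference in all 7. The Psmb9 levels of sham and rivaroxaban overlapped. Of 7 resident macrophage markers 6 fell in untreated against sham, and 6 passed in each fit that left out a library. Their summed level was 198 to 233 CPM in sham, 89.4 to 91.2 in untreated, 128 to 152 in rivaroxaban, 173 to 207 in dabigatran and 214 to 236 in aPC, with no defining marker at 0. B cell markers summed to 19.6 to 31.3 CPM in sham, 6.25 to 9.57 in untreated, 18.3 to 22.0 in rivaroxaban, 33.9 to 51.5 in dabigatran and 10.9 to 17.7 in aPC. Of 5 B cell markers 1 fell in untreated against sham, 0 without sham 006, and 0 passed in aPC against untreated. The 6 fibroblast markers summed to 1039 to 1585 CPM in sham, 716 and 808 in untreated, 1182 and 1345 in rivaroxaban, 715 and 1284 in Dabi-202 and Dabi-204 and 1140 and 1306 in aPC. Of these the collagen genes Col3a1 and Col1a1 fell in untreated against sham, neither without sham 006, and the same pair rose with rivaroxaban against untreated, neither without untreated 19 or either rivaroxaban library. In untreated against sham 2 of the 6 fibroblast markers had a positive difference. Pdgfra stood at 6.16, 6.06 and 5.80 log2 CPM in sham and 6.11 and 6.62 in untreated. Dcn stood at 9.03, 8.80 and 8.72 in sham and 8.85 and 9.14 in untreated. T and NK cell markers summed to 0.390 to 2.39 CPM over all libraries, with Cd3g at 0 reads in 4 libraries and Cd3d in 2. The 6 general leukocyte markers summed to 157 to 185 CPM in untreated, 194 to 270 in sham and 686 to 723 in dabigatran. Their lowest sum, 149, lay in rivaroxaban, as did the lowest sum of the neutrophil markers, 17.7 CPM. The part of cell makeup in the Psmb9 difference was not tested.

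The cap subunit Psmd11 (chr11:80428615-80473248, plus strand), a non-ATPase scaffold of the lid, changed the other way. It stood at 6.86, 6.74 and 6.88 log2 CPM in sham, 7.47 and 7.81 in untreated, 6.73 and 6.98 in rivaroxaban, 7.83 and 7.27 in dabigatran and 7.08 and 6.79 in aPC. Untreated and dabigatran libraries were all higher than those of the other 3 groups. Psmd11 rose by 0.81 ± 0.18 in untreated against sham (95% interval 0.41 to 1.21, limma adjusted p = 0.0223), a fold of 1.75, and by 0.72 ± 0.18 in dabigatran against sham (0.32 to 1.12, adjusted p = 0.0219). Against untreated it fell by 0.78 ± 0.20 with rivaroxaban (adjusted p = 0.0382) and by 0.70 ± 0.20 with aPC (adjusted p = 0.0371), and it was lower by 0.69 ± 0.20 in rivaroxaban than in dabigatran (adjusted p = 0.0299). In aPC against dabigatran the difference of −0.61 lay at the threshold (adjusted p = 0.050).

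Each Psmd11 call depended on some library. The rise in untreated had adjusted p of 0.0635, 0.0868 and 0.0522 without sham 003, 006 or 007, and was 0.64 with 0.109 without untreated 19. The rise in dabigatran was 0.44 with an adjusted p of 0.230 without Dabi-202, and had 0.0589, 0.0666 and 0.0525 without sham 003, 006 and 007. The fall with rivaroxaban lost its call without any sham or rivaroxaban library or untreated 19 (0.0609 to 0.242). The fall with aPC lost it without any library but untreated 17 and the dabigatran pair (0.0544 to 0.219). Rivaroxaban against dabigatran lost the call without Riva-313, Riva-319 or Dabi-202 (0.196, 0.0685 and 0.247). Psmd11 has near-identical copies, A730017L22Rik (1501 matching bases at 97.9% identity) and the pseudogene Gm14048 (1269 bases at 98.0%), whose reads cannot be told from its own with certainty. Of 7 neutrophil markers 5 rose in untreated against sham and 7 in dabigatran against sham, with 0 passing in the former without sham 006 or untreated 19, and their part was not tested.

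Psmd14 (chr2:61711694-61800376, plus strand), the metalloprotease of the lid that removes ubiquitin chains, rose in dabigatran. Its levels were 5.70, 5.71 and 5.64 log2 CPM in sham, 5.89 and 6.07 in untreated, 5.64 and 5.63 in rivaroxaban, 6.42 and 6.08 in dabigatran and 6.04 and 5.84 in aPC. Both dabigatran libraries were the highest, and sham and rivaroxaban occupied the bottom. Psmd14 rose by 0.56 ± 0.13 in dabigatran against sham (95% interval 0.27 to 0.86, adjusted p = 0.0187) and was lower by 0.61 ± 0.15 in rivaroxaban than in dabigatran (adjusted p = 0.0148). Without Dabi-202 these were 0.39 (adjusted p 0.189) and −0.44 (0.127). Sham 003 or 007 (0.0564 and 0.0545) ended the former and Riva-313 or Riva-319 (0.0947 and 0.0804) the latter.

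Psmd8 (chr7:29174188-29180701, minus strand), another lid subunit, stood at 6.34 and 6.45 in rivaroxaban and at 7.10 and 6.76 in dabigatran. Dabigatran was higher without overlap, and sham (6.58, 6.65 and 6.40), untreated (6.55 and 6.91) and aPC (6.88 and 6.82) lay between or across them. Rivaroxaban was lower than dabigatran by 0.54 ± 0.16 (adjusted p = 0.0380), a call lost without sham 003, sham 006, Dabi-202 or any rivaroxaban or aPC library (0.0521 to 0.269, the last with a difference of −0.37 without Dabi-202). None of the 6 cap ATPases passed in any of the 10 comparisons by limma, with at most 2 of them at an unadjusted p under 0.05 in a comparison. Psmc4 came nearest, with 6.25 and 6.50 log2 CPM in rivaroxaban and 6.94 and 6.66 in dabigatran, which did not overlap (difference −0.43, limma adjusted p = 0.055). This difference was −0.57 without Dabi-204 and −0.29 without Dabi-202. Of the constitutive core subunits none passed either, with at most 3 of the 8 alpha and 5 of the 7 beta subunits at an unadjusted p under 0.05 in a comparison, and Psma3 came nearest, at 5.70 and 5.89 in rivaroxaban and 6.72 and 6.16 in dabigatran (difference −0.64, adjusted p = 0.052). The Psma3 difference was −0.92 without Dabi-204 and −0.36 without Dabi-202, each leaving 1 dabigatran library.

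Start-site windows of 5 members are shown, those of the catalytic subunits Psmb5 and Psmb6, for the motif they carry, and those of Psmd11, Psmd14 and Psme3, which changed in the same comparisons with dabigatran. They are the bases upstream of the RefSeq start on GRCm38.p6 that lie outside annotated exons, 5′ to 3′ on the strand of the gene, with matches in capitals. For Psmb5 the window is chr14:54618023-54618245 on the minus strand and for Psmb6 chr11:70525107-70525356 on the plus strand, and capitals mark TGACNNNGC, the core of the element bound by CNC-bZIP factors such as Nfe2l1.
Psmb5: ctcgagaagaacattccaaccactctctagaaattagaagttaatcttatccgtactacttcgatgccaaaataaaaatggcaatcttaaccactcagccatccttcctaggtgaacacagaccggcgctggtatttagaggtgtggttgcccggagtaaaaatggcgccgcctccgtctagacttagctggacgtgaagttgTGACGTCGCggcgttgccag
Psmb6: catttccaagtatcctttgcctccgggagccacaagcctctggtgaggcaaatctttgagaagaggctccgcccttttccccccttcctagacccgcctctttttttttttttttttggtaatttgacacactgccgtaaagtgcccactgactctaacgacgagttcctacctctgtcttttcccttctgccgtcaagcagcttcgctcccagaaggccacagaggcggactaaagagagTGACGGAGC
For Psmd11 it is chr11:80428365-80428614, with no match to any motif searched, for Psmd14 chr2:61711444-61711693 and for Psme3 chr11:101315963-101316212, all on the plus strand, and capitals mark ATTGG, the reverse complement of the NF-Y core CCAAT.
Psmd11: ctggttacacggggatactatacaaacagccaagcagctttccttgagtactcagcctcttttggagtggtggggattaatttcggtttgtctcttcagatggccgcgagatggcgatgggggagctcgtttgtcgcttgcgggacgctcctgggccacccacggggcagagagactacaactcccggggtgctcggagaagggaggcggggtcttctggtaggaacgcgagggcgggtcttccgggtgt
Psmd14: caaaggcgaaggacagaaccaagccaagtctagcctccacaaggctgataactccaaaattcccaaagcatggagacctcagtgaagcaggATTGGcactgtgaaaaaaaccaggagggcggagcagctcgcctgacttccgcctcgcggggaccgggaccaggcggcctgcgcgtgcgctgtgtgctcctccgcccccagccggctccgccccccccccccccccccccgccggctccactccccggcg
Psme3: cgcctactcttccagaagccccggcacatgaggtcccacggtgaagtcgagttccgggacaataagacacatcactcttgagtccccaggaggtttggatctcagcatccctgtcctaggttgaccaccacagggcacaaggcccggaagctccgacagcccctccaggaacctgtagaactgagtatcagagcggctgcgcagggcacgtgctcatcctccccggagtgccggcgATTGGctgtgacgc
The match lies at −47 in Psmb5, −9 in Psmb6, −159 in Psmd14 and −14 in Psme3, counted to its first base from the start site. Of 39 members with a window in the table, 5 held TGACNNNGC on either strand (Psmb5, Psmb6, Psmc6, Psmd12 and Psmd9), where 10.2% of 32851 windows of all genes did. CCAAT was held by 14 members against 33.8% of windows, the core of the interferon-stimulated element (GAAA and GAAA with 2 bases between) by 3 against 2.98%, and TTCNNNGAA, the core of the gamma-activated sequence, by 2 (Psmb8 and Psmg1) against 7.02%. The windows searched span the 250 bases before the RefSeq start, with bases inside annotated exons kept, and a match describes letters only. All 250 bases of the Psmb8 window lie in annotated exons.

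The activators differed among themselves. Psme4 (chr11:30771726-30880361, plus strand) was low in dabigatran: it stood at 8.85, 8.49 and 9.12 log2 CPM in sham, 8.79 and 8.89 in untreated, 8.90 and 8.79 in rivaroxaban, 8.14 and 8.29 in dabigatran and 9.24 and 9.13 in aPC. Both dabigatran libraries lay below all others and both aPC libraries above all others. Psme4 was higher by 0.97 ± 0.18 in aPC than in dabigatran (95% interval 0.57 to 1.37, limma adjusted p = 0.00587), a fold of 1.96, and this call held in all 11 fits that left out a library, at 0.89 to 1.04 with adjusted p up to 0.0442. It fell by 0.62 ± 0.18 with dabigatran against untreated (−1.03 to −0.22, adjusted p = 0.0464) and by 0.60 ± 0.17 against sham (adjusted p = 0.0316), and was higher by 0.62 ± 0.18 in rivaroxaban than in dabigatran (adjusted p = 0.0321). The fall against untreated lost its call without any library but sham 006, sham 007 and untreated 17 (adjusted p 0.0684 to 0.196). The fall against sham lost it without sham 003, sham 007 or any rivaroxaban or dabigatran library (0.0512 to 0.220), and the difference from rivaroxaban without sham 003 or any rivaroxaban or dabigatran library (0.0506 to 0.190). In aPC against sham Psme4 did not pass.

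Cardiomyocyte markers were low in the same libraries. Of 8 such markers 3 fell in dabigatran against untreated (Ryr2, Myh6 and Atp2a2), and 0 without Dabi-202. In aPC against dabigatran 4 were higher, and 0 without aPC-792. Leukocyte markers were higher in dabigatran than in untreated for 6 of 6, as in each fit that left out a library. The part of cell makeup in the Psme4 difference was not tested. Ecpas, the adaptor that scaffolds the proteasome, moved in the same direction, with 7.71, 7.70 and 8.00 in sham, 7.86 and 7.78 in untreated, 7.82 and 7.83 in rivaroxaban, 7.29 and 7.47 in dabigatran and 8.04 and 8.12 in aPC. Dabigatran was again lowest and aPC highest, without overlap, and Ecpas was higher by 0.70 in aPC than in dabigatran, a call lost without aPC-792 (0.66, adjusted p 0.0585).

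Psme1 and Psme2 form the ring-shaped activator induced by interferon gamma, and they are close neighbours at chr14:55578123-55581529 (plus strand) and chr14:55587441-55591113 (minus strand). Psme1 stood at 6.60, 6.93 and 6.74 log2 CPM in sham, 6.58 and 6.98 in untreated, 6.57 and 6.59 in rivaroxaban, 6.52 and 6.57 in dabigatran and 7.26 and 7.03 in aPC. The aPC libraries were the highest of the series. Psme1 was higher by 0.60 ± 0.16 in aPC than in dabigatran (95% interval 0.24 to 0.96, limma adjusted p = 0.0262), a call that ended without Dabi-202 or Dabi-204 or aPC-791 or aPC-792 (0.115, 0.0647, 0.161 and 0.0667), and the difference of 0.57 from rivaroxaban had an adjusted p of 0.110. Psme2 stood at 5.67, 5.78 and 5.59 in sham, 5.56 and 5.38 in untreated, 5.48 and 5.70 in rivaroxaban, 5.99 and 5.80 in dabigatran and 6.05 and 5.93 in aPC. Its aPC and dabigatran libraries exceeded all others. Psme2 rose by 0.52 ± 0.14 with aPC against untreated (adjusted p = 0.0346), called in 5 of 11 fits and lost without sham 003, untreated 19, either rivaroxaban library or either aPC library (0.0526 to 0.158). With dabigatran the difference of 0.42 had an adjusted p of 0.077. Psme2 has a near-identical copy, Psme2b, over 794 bases at 99.4% identity, and Psme1 overlaps Emc9 on the opposite strand.

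Psme3 (chr11:101316213-101323537, plus strand), the nuclear activator of the same family, followed the structural subunits. It stood at 6.27, 6.26 and 6.24 log2 CPM in sham, 6.48 and 6.61 in untreated, 6.21 and 6.14 in rivaroxaban, 6.96 and 6.57 in dabigatran and 6.65 and 6.50 in aPC. Sham and rivaroxaban were the low groups, apart from the other 3. Psme3 rose by 0.51 ± 0.13 in dabigatran against sham (95% interval 0.22 to 0.80, adjusted p = 0.0252) and was lower by 0.59 ± 0.14 in rivaroxaban than in dabigatran (adjusted p = 0.0163). Without Dabi-202 they were 0.31 (0.236) and −0.39 (0.133), while any 1 sham library left out ended the former (0.0634 to 0.0719) and either rivaroxaban library the latter (0.0869 and 0.0977). The inhibitor Psmf1, which blocks the core, stood at 4.53, 4.54 and 4.36 in sham and 4.65 and 5.13 in untreated. The untreated libraries were higher without overlap, at a difference of 0.41 (adjusted p = 0.127), and it passed there without untreated 17 (0.65, 0.00933).

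The assembly factors did not pass limma in any of the 10 comparisons, where at most 2 of the 3 base and 1 of the 3 tested core chaperones had an unadjusted p under 0.05. Psmg2, which pairs with Psmg1 to lay down the alpha ring, stood at 4.70, 4.69 and 4.45 log2 CPM in sham, 4.39 and 4.04 in untreated and 4.91 and 4.60 in dabigatran. Untreated was the lower group without overlap, with differences of −0.40 from sham (limma adjusted p = 0.132) and 0.53 for dabigatran over untreated (0.077). They were −0.57 and 0.71 without untreated 17, and −0.22 and 0.36 without untreated 19. Psmd10, a chaperone of the cap base also known as gankyrin, stood at 3.33 and 2.74 in untreated and 3.70 and 3.65 in aPC. Its levels were 3.46, 3.62 and 3.31 in sham, 3.60 and 3.44 in rivaroxaban and 3.64 and 3.54 in dabigatran. Untreated 19 was the lowest library. The aPC libraries were higher than those of untreated, at a difference of 0.64 (limma adjusted p = 0.067). This difference was 0.93 without untreated 17 and 0.34 without untreated 19. Psmd9, another base chaperone, was 4.14 and 4.82 in the untreated libraries and 4.01 to 4.29 in the other 9, so untreated 19 alone stood out. Psmd5 ranged from 4.18 to 4.89, Psmg1 from 3.78 to 4.32 and Psmg4 from 2.68 to 3.37. Psmg3, the partner of Psmg4, reached a log2 CPM of 0 only in untreated 19 (0.21) and Dabi-202 (0.76) and was not tested, and Psma8 lay between −1.29 and 0.35. Psmc3ip ranged from 0.42 to 1.40.

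**Figure D5:**
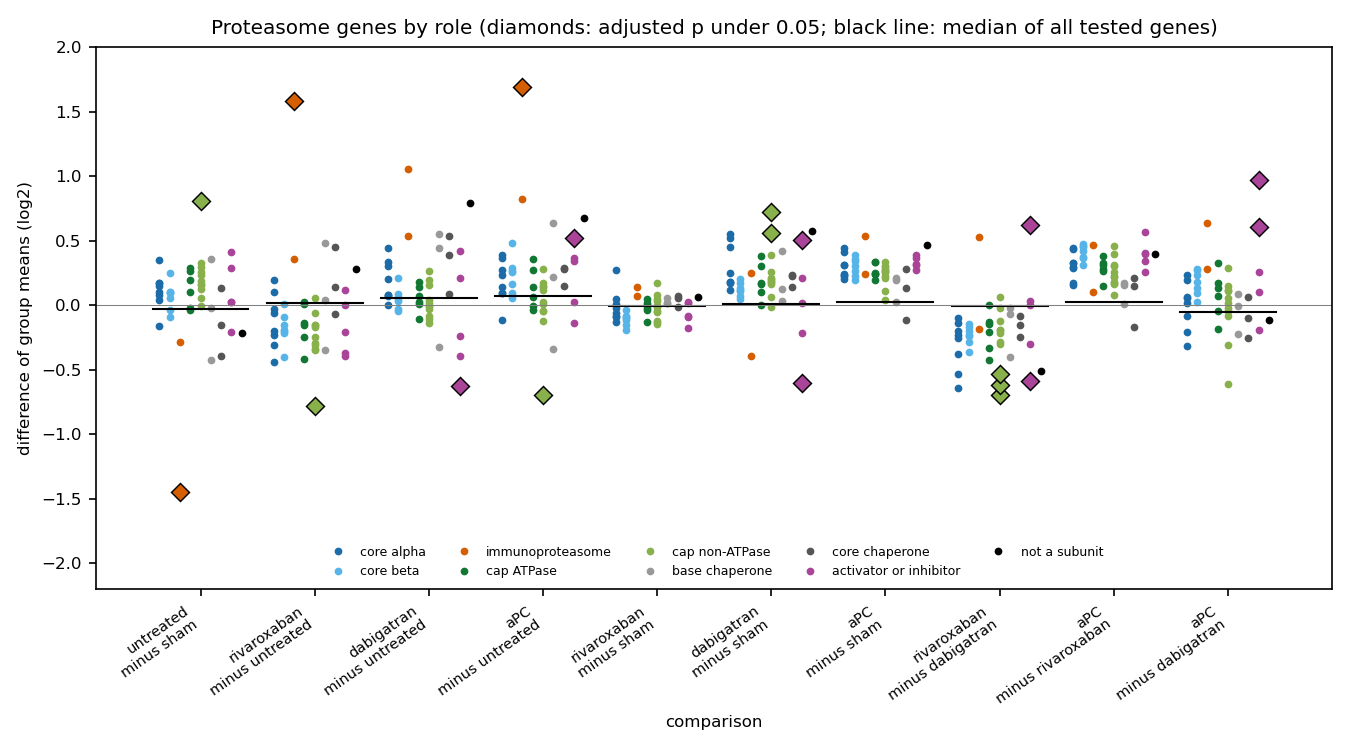
Difference of group means on the log2 scale for each of the 46 tested members in each of the 10 comparisons, coloured by role, with diamonds for limma adjusted p under 0.05 and a black line at the median of all tested genes. Psmb9 is the farthest point in untreated against sham (−1.44), rivaroxaban against untreated (1.58) and aPC against untreated (1.69), and no diamond appears in rivaroxaban against sham, aPC against sham or aPC against rivaroxaban.

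Counted over the 46 tested members, calls were few. In untreated against sham 2 passed, where 10.6% of all tested genes did, and 6 had an unadjusted p under 0.05. Against untreated, rivaroxaban had 2 (background 8.47%), dabigatran 1 (13.8%) and aPC 3 (17.6%), with 7, 8 and 10 at an unadjusted p under 0.05. Dabigatran against sham had 4 (18.5%), rivaroxaban against dabigatran 5 (23.3%) and aPC against dabigatran 2 (21.5%). As a share of 46, each count is below the background of its comparison. Simulated data with 13541 genes had the same spread in every group, unlike the real untreated pair. Changes of 2-fold were recovered there in 35 of 100 genes for rivaroxaban against dabigatran and aPC against rivaroxaban. The highest recovery was 53 of 100, for rivaroxaban against sham. Most differences of members were smaller than 2-fold, so an uncalled member is not shown to be unchanged. The counts also moved with single libraries, above all untreated 17. With untreated 17 left out, 1 untreated library remained, and the counts against it rose for members and for all genes alike. Such counts are not replicated results. Without sham 006 no member passed in untreated against sham or rivaroxaban against untreated, and without sham 003 none passed in dabigatran against untreated.

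Of 13 tested genes that control proteasome transcription, 3 rose in untreated against sham and none fell (median 0.41 beside −0.03 over all genes), where 10.6% of all genes passed. The count was 1 without any library but untreated 17 and the dabigatran pair. The CNC-bZIP partner Maff stood at 4.09, 3.69 and 4.06 log2 CPM in sham, 5.58 and 5.86 in untreated, 3.36 and 3.59 in rivaroxaban, 5.63 and 4.79 in dabigatran and 3.95 and 3.16 in aPC. Untreated and dabigatran were the high groups without overlap, the same 2 groups as for Psmd11. Maff rose by 1.77 in untreated against sham and fell by 2.25 with rivaroxaban and by 2.17 with aPC against untreated. The rise and the fall with aPC were called in all 11 fits that left out a library, and the fall with rivaroxaban was lost without Riva-313 (adjusted p 0.0619). Nfe2l2, the antioxidant factor of the same family, rose by 0.76, and Ddi2, the protease that activates Nfe2l1, by 0.61. Both lost their call without any library but untreated 17 and the dabigatran pair, with adjusted p up to 0.124 (without sham 006) for Nfe2l2 and 0.208 (without untreated 19) for Ddi2. Nfe2l1 itself, the main driver of subunit genes when the proteasome is inhibited, ranged from 9.15 to 9.48 over the series and passed in none of these.

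Against untreated, 4 of the 13 fell with rivaroxaban (median −0.54), where 8.47% of all tested genes passed with a median of 0.02. With aPC 5 fell (median −0.40), where 17.6% of all genes passed with a median of 0.07. With dabigatran 1 fell, where 13.8% of all genes passed, and none of the 13 rose with any drug. Ddi2 stood at 6.24, 6.03 and 6.40 in sham, 6.58 and 7.09 in untreated, 6.08 and 6.07 in rivaroxaban, 5.98 and 5.95 in dabigatran and 5.80 and 5.73 in aPC. It was highest in both untreated libraries, and fell by 0.76 with rivaroxaban, 0.87 with dabigatran and 1.07 with aPC. The fall with rivaroxaban lost its call without sham 003, untreated 19 or either rivaroxaban library (0.0529 to 0.172), and that with aPC without aPC-792 (0.0561). Nfe2l2 fell by 0.85 with rivaroxaban, lost without any library but untreated 17 and the dabigatran pair (up to 0.188), and by 0.86 with aPC, lost without aPC-791 or aPC-792 (0.0858 and 0.133). The count that fell with rivaroxaban was 0 without Riva-313, and that with aPC was 1 without aPC-792.

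Other lists around the proteasome changed in few members. Of all tested genes, 10.6% passed in untreated against sham, 8.47% in rivaroxaban and 13.8% in dabigatran against untreated. The shares were 18.5% in dabigatran against sham and 23.3% in rivaroxaban against dabigatran. Of 18 partners of the proteasome that the naming rule does not take, 1 (Ddi2) rose in untreated against sham and 2 fell with rivaroxaban against untreated (Ddi2 and Zfand2a, a stress-induced zinc finger protein, by 1.13), none of the latter without sham 003, untreated 19, Riva-313 or Riva-319. In rivaroxaban against dabigatran 1 was higher (Ecpas) and 3 were lower (the shuttle factors Ubqln1 and Rad23b, and Zfand2a), and none passed without Riva-313, Riva-319 or Dabi-202. Of 7 tested ubiquitin and E1 or E2 enzyme genes, 3 rose in dabigatran against sham (Rps27a, Ube2d3 and Uba1), and 0 without Dabi-202 or either of sham 003 and 007. Of 9 muscle ubiquitin ligases 2 rose in untreated against sham (Cblb by 1.84, Traf6 by 0.87) and 1 fell (Asb2 by 1.13). Without any library but untreated 17 and the dabigatran pair 1 rose, and without any sham library or untreated 19 none fell. Fbxo32, the atrophy ligase atrogin, stood at 7.90, 7.49 and 7.65 log2 CPM in sham, 8.80 and 8.30 in untreated, 7.98 and 8.26 in rivaroxaban, 5.86 and 6.91 in dabigatran and 7.79 and 7.75 in aPC. Dabigatran was lowest and apart from all other groups, and Fbxo32 fell there by 2.17 against untreated, called in all 11 fits that left out a library, with the highest adjusted p 0.0102.

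Positions and copies limit some members. The 47 genes lie on 16 chromosomes, and 12 of them have a copy of at least 200 bases at 95% identity or more among GENCODE M21 transcripts, mostly processed pseudogenes of core subunits such as Psma3, Psma5 and Psmb3. Exons of 14 members overlap those of another gene, 12 of them on the opposite strand, Psmb9 with Tap1 and Psmb8 with Gm20496 among them.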

How the data were processed

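Messenger RNA was purified from 500 ng of total heart RNA and made into strand-marking libraries, per the labels' protocols. One deposited table holds log2 CPM after TMM scaling for 11 of 15 labelled samples, and these log2 values are the authors' own. The submitters' processing notes name STAR, Trim Galore, FastQC, bcl2fastq, edgeR and build mm10. The version of each, the counter, the annotation and the strand setting were not given in the sources used here. The deposited log2 values turned into whole reads, within 0.05 of a read, for 100% of values, and 3 reads correspond to −2.83 to −2.41 log2 CPM, so that fold changes of Psma8 and Psmg3 are understated.

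Computed here, with R 4.3.3 and limma 3.58.1: a two-sided limma-trend fit of 5 group means over 11 libraries on the log2 scale, with Benjamini-Hochberg adjustment over the 13541 genes at a log2 CPM of at least 0 in at least 3 libraries. Errors printed after ± are standard errors from that fit. The spread is estimated over all groups at once, so errors against the untreated pair, more variable over all tested genes, mostly run small. Comparisons that share a group share its libraries. Alternatives were no filter, a stricter filter of 2, 1 CPM added before the log, median centring, quantile scaling, limma-voom on the recovered reads, library weights, fits of 2 groups only, and leaving out each library. Leaving out a library of any group but sham leaves that group with 1 library and no replication. Calls gained, kept or lost in such fits are not replicated results. The procedure was tested on simulated data. It recovered 72 of 100 changes of 4-fold for rivaroxaban against dabigatran and 91 of 100 for untreated against sham. Of the calls, 2.33% (dabigatran against sham) to 7.76% (rivaroxaban against dabigatran) were false. Every group was simulated with the same spread for a gene. These shares therefore cannot show the errors of comparisons with the more variable untreated pair. Intervals at 95% are limma's.

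The members and gene lists were chosen with earlier results of these data known. All members may be named. The rule gives every library's value for the catalytic, immunoproteasome and activator genes and, in each role, for the called member with the largest rise and fall, and up to 4 members by smallest p of each other list. Some items were chosen after their values were seen. These were the printed promoters and several pairs of gene and comparison (Psma3, Psma6, Psmc4, Psmg2, Psmd10 and Psmf1, and Psmd9 as a single library's value). They also were genes outside that rule (Ifngr2, Irf1, Tap1, Nfe2l1, Ecpas, Fbxo32 and Ube2l6 in every library, and Ifngr1, Pdgfra and Dcn in sham and untreated). Promoters are those of RefSeq on GRCm38.p6, matched by symbol for 39 members. Positions come from GENCODE M21, to which all 47 matched by identifier. Copies were searched at 95% identity or more over at least 200 bases, a minimum raised after short repeats were seen. Some genes of the lists are not reported here.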

Additional observations from a re-analysis of the deposited data

Results flagged for a closer look

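Differences between the responses to 2 drugs, each taken against untreated hearts, equal the direct comparison of the drugs, and 7 of them passed limma's adjusted p of 0.05 for a member. Between aPC and dabigatran they were those of Psme4 (0.9677 on the log2 scale, higher in aPC) and Psme1 (0.6023, higher in aPC). Between rivaroxaban and dabigatran they were those of Psmd11 (−0.6933), Psmd14 (−0.6147), Psme3 (−0.585) and Psmd8 (−0.5364), all lower with rivaroxaban, and of Psme4 (0.6244, higher with rivaroxaban). Psme4 between aPC and dabigatran is the member difference that passed in all 11 fits without a library. No group held enough libraries to test a single one as standing apart.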

How the results depend on the processing

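No member's difference changed sign under any alternative where it had been called. Counts of members that passed moved with the weighting and the number of groups fitted. With library weights, which gave the untreated libraries 0.242 each and sham 003 3.15, 0 passed in untreated against sham and in rivaroxaban, dabigatran and aPC against untreated, 5 in aPC against sham and 16 in aPC against rivaroxaban. With only the 2 groups compared in the fit, 1 passed in untreated against sham, 0 in each drug against untreated, 3 in rivaroxaban against dabigatran and 5 in aPC against rivaroxaban. With no filter and with quantile scaling 0 passed in dabigatran against untreated, and with median centring 3 in rivaroxaban against dabigatran and 4 in aPC against dabigatran. No share of all tested genes is given beside these counts, so they show only how far the number of calls moved. The cause was not tested.

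Leaving out each library in turn gave counts of 0 to 7 in untreated against sham, 0 to 9 for rivaroxaban, 0 to 9 for dabigatran and 0 to 8 for aPC against untreated. It gave 0 for rivaroxaban and for aPC against sham, 0 to 7 for dabigatran against sham, 0 to 9 in rivaroxaban against dabigatran, 0 to 1 in aPC against rivaroxaban and 1 to 3 in aPC against dabigatran. No paired analysis was possible because the groups share no replicate numbers. With 2 libraries a group, most member differences lie below what the fit recovers reliably, and depth limits Psma8, Psmg3 and Psmc3ip.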
